A study of Mus musculus with 2 samples.

Results

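The Bcl2 family decides at the outer mitochondrial membrane whether a cell lives or dies, and 10 of its genes were followed here: the pro-survival genes Mcl1, Bcl2l1 and Bcl2, the effector genes Bax and Bak1, and the BH3-only genes Bid, Bad, Bcl2l11, Bbc3 and Pmaip1. They were taken by symbol from the 32227 genes of the deposited tables, and all 10 were found and had at least 20 counts in the libraries together, as did 15586 genes in all. The data came from Meta4 organoids, a dysplastic line from the mouse stomach corpus. Both libraries carry the transgene Mist1-CreERT2Tg/+, a Cre recombinase driven from Mist1, a gene of chief cells in the corpus, and the label of dysplasia induction. Treatment lasted 1 day, with DMSO as the solvent control or with pyrvinium (labelled Pyr), a drug against pinworm. No dose and no age of the animals is stated in the labels. Each treatment is 1 single-cell library of 1 line.

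Proteins of the family bind one another. Bax and Bak1 open the outer membrane when active and let cytochrome c out, which starts the caspases. Mcl1, Bcl-xL (the product of Bcl2l1) and Bcl2 hold them in check, while BH3-only proteins are stress sensors that occupy the pro-survival proteins or switch on the effectors. In epithelium, Mcl1 and Bcl-xL are known as the main guards. Much of this control acts on the proteins, by turnover, phosphorylation and cleavage, and only RNA was measured here.

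The kept cells numbered 1602 with DMSO (at least 9320 counts each, median 18593) and 854 with pyrvinium (at least 13100 counts, median 31517), and 0 cell barcodes were shared. Levels are in CPM, counts summed over those cells and scaled to a common library total, from 39980497 and 37046673 counts. They are compared between libraries and not between genes, since capture differs from gene to gene. Intervals are 95% and cover counting error only. With 1 library per treatment no difference has a replicate check, no test was run, and "higher" and "lower" compare these 2 libraries. The 6 markers of gastric epithelium summed to 8468 CPM with DMSO and 5747 CPM with pyrvinium, all above 0. The 5 fibroblast markers summed to 1.00 and 0.76 CPM, and the 5 immune markers to 21.5 and 29.4 CPM, of which Cd68 made up 21.0 and 28.3 CPM and Lyz2 was at 0 in both. Endothelial markers summed to 43.2 and 58.9 CPM, nearly all Cdh5 (41.7 and 56.6 CPM). Markers of chief cells summed to 9.40 and 4.45 CPM, of parietal cells to 1.95 and 1.81 CPM, of mucous neck cells to 34.1 and 35.5 CPM and of surface mucous cells to 334 and 405 CPM, the last nearly all Tff1. The surface mucous gene Muc5ac had 0 and 1 counts and the parietal gene Atp4b 2 and 0.

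Of the 10 genes, 2 were at least 1.5-fold lower with pyrvinium with the whole interval below 1, and 0 were at least 1.5-fold higher. Over all 15586 genes the shares were 15.5% lower and 7.57% higher, so the count alone does not set the family apart. Where either library reached 10 CPM, which 8 members did, 1 member (Mcl1) was lower and 0 were higher, against 14.9% and 6.34% of 6846 genes. Both lower genes were pro-survival genes, Mcl1 and Bcl2, while Bcl2l1 lay level. No pro-death gene was higher with pyrvinium by more than counting error over the whole library. Within the clusters described below, Pmaip1 in cluster 2 and Bbc3 in cluster 4 were at least 1.5-fold higher. Ddit3, which encodes the stress factor CHOP and is known to act on several of these genes, was 7.96-fold higher over the whole library. Whether CHOP acted on the members here was not tested. The median log2 ratio of pyrvinium over DMSO was -0.37 for the 10 genes and -0.08 for all 15586.

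**Figure D1:**
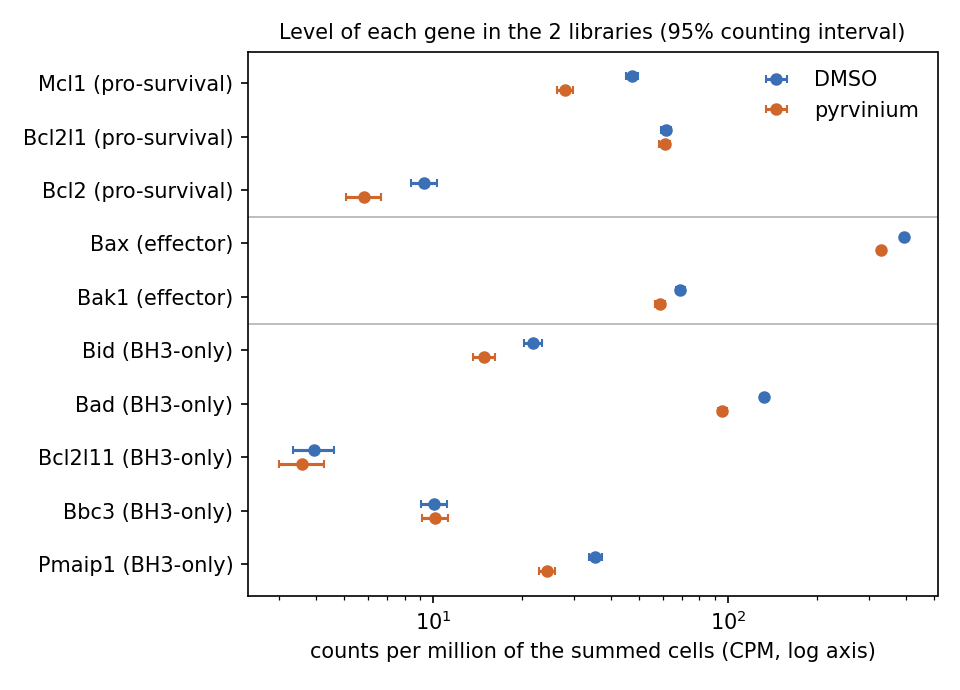
CPM in the summed cells of each library (log axis) for the 10 genes, grouped by role, with bars for the 95% counting interval. Mcl1 (47.2 and 28.0 CPM) and Bcl2 (9.30 and 5.83 CPM) stand apart between the libraries, while the points of Bcl2l1 and Bbc3 lie at nearly the same level.

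Mcl1 (ENSMUSG00000038612) encodes a short-lived guard that binds Bak1 and most BH3-only proteins. Its level was 47.2 CPM (45.1 to 49.4) in the DMSO library against 28.0 CPM (26.3 to 29.7) after pyrvinium, 1.69-fold lower. The log2 ratio was -0.75 (-0.86 to -0.64), and 12.4% of the tested genes had a lower one. Mcl1 stayed at least 1.5-fold lower in all 10 alternative settings, between -0.82 and -0.67. With every cell thinned at random to 5000 counts, to make up for the deeper pyrvinium cells, Mcl1 was counted in 21.8% of DMSO cells (19.8 to 24.0) and 13.8% of pyrvinium cells (11.6 to 16.3). If 10% of counts were free RNA, that alone would put a count in 3.07% and 1.79% of cells. No cell type that lacks Mcl1 was identified, and the clusters with the smallest share had 16.4% and 11.64%. Without thinning the shares were 57.3% and 57.7%.

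Bcl2 (ENSMUSG00000057329), the founding member of the family, was low in both libraries. It had 372 counts with DMSO, 9.30 CPM (8.38 to 10.3), and 216 with pyrvinium, 5.83 CPM (5.08 to 6.66), 1.60-fold lower. It was under 1.5-fold in 1 of the 10 alternatives, cells of the same range of counts, with a log2 ratio of -0.48. The ratio was -1.42 when the clusters shared by the libraries were given equal weight. Bcl2l1 (ENSMUSG00000007659) was at 61.4 CPM (59.0 to 63.9) and 60.9 CPM (58.4 to 63.5), a log2 ratio of -0.01 (-0.10 to 0.07). The interval holds 0, and the ratio spanned -0.16 to 0.07 over the alternatives. There were 1.30 Bcl2l1 counts per Mcl1 count with DMSO and 2.18 with pyrvinium, a log2 change of 0.74 (0.60 to 0.88). Counts at the gene's 3′ end do not separate Bcl-xL from its short pro-death splice form, nor the long from the short form of Mcl1.

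The promoters of the 2 lower genes are shown because these were the members past the limit. The 250 bases before the RefSeq start of each, 5′ to 3′, come from the RefSeq table of build GRCm38.p6, whereas the submitters' processing notes name GRCm39 for the counts. Mcl1 lies on the plus strand at chr3:95658471-95658720 and Bcl2 on the minus strand at chr1:106714291-106714540. Capitals mark the motifs found.
Mcl1: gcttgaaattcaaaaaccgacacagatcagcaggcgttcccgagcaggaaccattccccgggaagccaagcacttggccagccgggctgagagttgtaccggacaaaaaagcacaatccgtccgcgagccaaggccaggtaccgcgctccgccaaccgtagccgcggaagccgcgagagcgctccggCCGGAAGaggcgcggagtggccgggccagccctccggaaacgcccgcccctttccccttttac
Bcl2: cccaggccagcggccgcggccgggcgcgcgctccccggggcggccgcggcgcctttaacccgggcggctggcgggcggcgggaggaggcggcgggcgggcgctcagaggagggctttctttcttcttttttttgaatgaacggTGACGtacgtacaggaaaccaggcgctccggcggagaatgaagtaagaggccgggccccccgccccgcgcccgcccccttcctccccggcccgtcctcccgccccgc
A total of 5 motifs were searched on both strands: CCGGAAG (bound by ETS factors), TGANTCA (AP-1), TGACG (half-site of ATF and CREB factors), TGATGNAA (the composite element of C/EBP and ATF factors) and ACGTG (core of the hypoxia factor's element). TGACG and ACGTG can overlap where both occur. The Mcl1 window holds CCGGAAG 63 to 57 bases before the start, and the Bcl2 window holds TGACG 107 to 103 bases before it. Stretches just after the Bcl2 start were found in a GENCODE transcript of the gene, and those after the Mcl1 start were not. The Mcl1 positions therefore hold for the RefSeq start only. Of 32817 windows of this length, 6.90% hold CCGGAAG, 6.75% TGANTCA, 17.7% TGACG, 3.45% TGATGNAA and 16.6% ACGTG. Of the 10 genes, 9 are in the table, with 15 windows. CCGGAAG is also in 1 of the 2 Bcl2l11 windows, TGACG in 1 of the 3 Bbc3 windows, and ACGTG in the Bax window and in 1 Bbc3 window. TGATGNAA and TGANTCA are in 0 of the 15. A match describes letters, not binding.

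The effector genes differed little. Bax (ENSMUSG00000003873) stood at 396 CPM (389 to 402) in DMSO cells and 331 CPM (325 to 336) in pyrvinium cells, 1.20-fold lower. Bak1 (ENSMUSG00000057789) was at 69.0 CPM (66.4 to 71.6) and 58.8 CPM (56.4 to 61.3), 1.17-fold lower. Neither came to 1.5-fold in any of the 10 alternatives, which spanned log2 ratios of -0.38 to -0.17 for Bax and -0.47 to -0.14 for Bak1. After thinning, 80.9% of DMSO cells (78.9 to 82.8) and 81.9% of pyrvinium cells (79.1 to 84.4) had a Bax count, where free RNA at 10% would give 18.4% and 17.6%. The smallest share in a cluster was 68.9% and 78.1%, and the shares without thinning were 98.0% and 99.6%. A cell therefore had a Bax count in most cases in both libraries, and its mean was 1.97 and 1.69 counts per thinned cell.

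Among the BH3-only genes, 0 of 5 passed the 1.5-fold limit in either direction, and 3 lay between 1.39-fold and 1.47-fold lower. Over all 15586 tested genes 15.5% passed it downward and 7.57% upward, so 0 of 5 does not set these genes apart. The log2 ratios of Bid (-0.55), Bad (-0.47) and Pmaip1 (-0.54) lay within the interval of the pro-survival gene Bcl2 (-0.92 to -0.43), which did pass the limit. Bid (ENSMUSG00000004446), whose protein is cut by caspase 8 and carries the death receptor signal to mitochondria, was at 21.8 CPM (20.4 to 23.3) and 14.9 CPM (13.7 to 16.2), 1.47-fold lower. Bad (ENSMUSG00000024959), held inactive by survival kinases, was at 133 CPM (129 to 136) and 95.6 CPM (92.5 to 98.8), 1.39-fold lower. Pmaip1 (ENSMUSG00000024521), which encodes Noxa, the partner that targets Mcl1, was at 35.5 CPM (33.7 to 37.4) and 24.3 CPM (22.8 to 26.0), 1.46-fold lower. In summed CPM all 3 were lower with pyrvinium by more than counting error. Among cells thinned to 5000 counts the share with a Bid count was level, at 8.18% with DMSO (6.88 to 9.63) and 8.20% with pyrvinium (6.45 to 10.2). For Bad the thinned shares were 46.9% (44.4 to 49.4) and 39.7% (36.4 to 43.1), and those of Pmaip1 are given further below. Bid passed the limit in 3 of the 10 alternatives, Bad in 1 and Pmaip1 in 4.

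The other BH3-only genes lay close between the libraries. Bbc3 (ENSMUSG00000002083) encodes Puma, a p53 target that binds every pro-survival member. It was at 10.1 CPM with DMSO (9.12 to 11.1) and with pyrvinium (9.15 to 11.2), a log2 ratio of 0.01 (-0.20 to 0.22) that ran from -0.17 to 0.44 over the alternatives. Bcl2l11 (ENSMUSG00000027381), which encodes Bim and whose protein ERK marks for breakdown, was at 3.95 CPM (3.36 to 4.62) and 3.59 CPM (3.01 to 4.25), from 158 and 133 counts. Its log2 ratio was -0.14 (-0.48 to 0.20), so a difference of this size was not detectable at this depth. It passed the limit downward in 1 of the 10 alternatives, free RNA of the smallest barcodes subtracted, at -0.67.

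**Figure D2:**
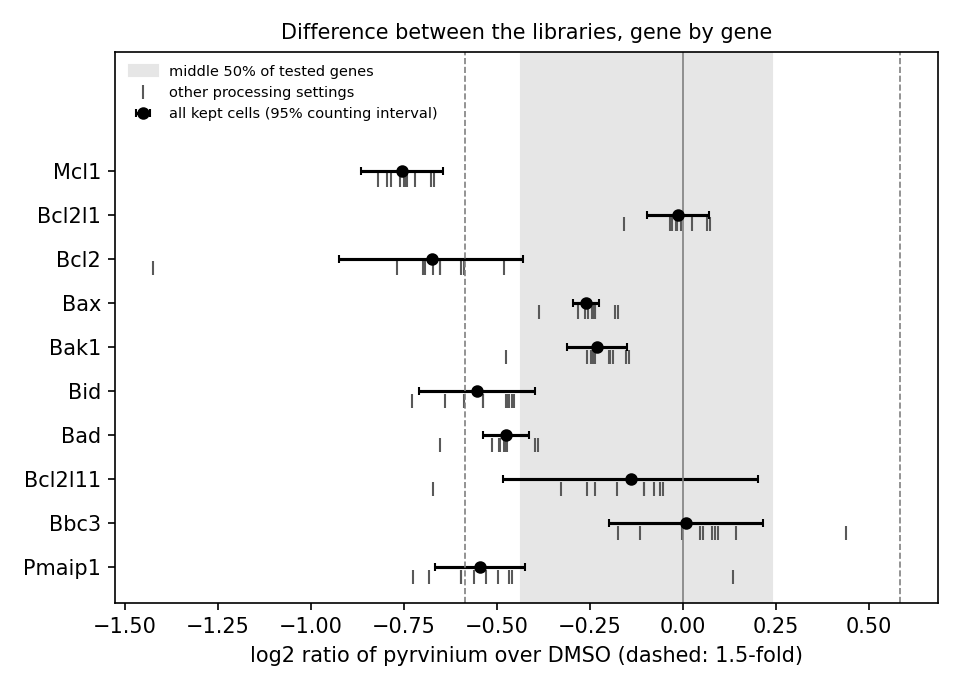
Log2 ratio of pyrvinium over DMSO for each gene: points with bars are all kept cells with the 95% counting interval, ticks are 10 other processing settings, dashed lines mark 1.5-fold and the grey band holds the middle 50% of the 15586 tested genes (-0.44 to 0.24). Mcl1 lies left of the band in every setting, Bcl2l1 and Bbc3 lie around 0, and Pmaip1 has 1 setting on the other side of 0.

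Summed over the groups, the 3 pro-survival genes had 0.25 counts per effector count with DMSO and 0.24 with pyrvinium (log2 change -0.06, interval -0.13 to 0.01). Against the 5 BH3-only genes they had 0.58 and 0.64 counts per count (log2 change 0.14, 0.06 to 0.22). The sums hold genes on both sides that were lower with pyrvinium (Mcl1, Bcl2, Bad, Bid and Pmaip1) beside Bcl2l1, which lay level. Per pair the change was larger: there were 4.68 Mcl1 counts per Bbc3 count with DMSO and 2.76 with pyrvinium, a log2 change of -0.76 (-0.998 to -0.53). Mcl1 and Pmaip1 differed less, with 1.33 and 1.15 Mcl1 counts per Pmaip1 count (log2 change -0.21, -0.37 to -0.04). Of the clusters described next, cluster 3 was left out for having the highest Pmaip1 of the DMSO clusters, so the DMSO level of Pmaip1 had to fall. Without that cluster the log2 ratio was -0.72 for Mcl1 and -0.03 for Pmaip1. Because of that choice these values are no check of the pair. Such sums weigh the genes with the most counts, and counts of different genes were not scaled for capture or length.

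Cells of both libraries were clustered without these genes or the pathway genes below, which gave 5 clusters. Clusters 2 and 4 held at least 30 cells of each library: cluster 2 (652 DMSO and 146 pyrvinium cells) was led by the mitotic genes Cdc20, Ccnb1 and Plk1, and cluster 4 (173 and 423) by Dusp4, Gdf15 and Kif13a. Leading genes were ranked over the cells of both libraries together and need not mark the cells of each library. In cluster 4, Gdf15 was at 105 CPM in DMSO cells, below DMSO cluster 3 (213 CPM), and at 1122 CPM in pyrvinium cells. Whether the DMSO and pyrvinium cells of cluster 4 are of the same kind was not tested. Clusters 1 (562 and 21 cells; led by Fosb, Egr1 and Fos) and 3 (209 and 6; AA467197, Ndrg1 and Cited1 among its leading genes) were mostly DMSO cells, and cluster 5 (6 and 258; led by Atf5, Cldn2 and Slc12a2) mostly pyrvinium cells. Such a cluster may be a library rather than a cell type, so the treatments can be compared within clusters 2 and 4 only.

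Mcl1 was lower within both shared clusters. Cluster 2 had 36.8 CPM in DMSO cells and 22.4 CPM in pyrvinium cells, and cluster 4 had 43.4 and 25.6 CPM, with log2 ratios of -0.72 (-0.99 to -0.45) and -0.76 (-0.996 to -0.53). The DMSO clusters ran from 36.8 to 59.9 CPM and the pyrvinium clusters from 22.4 to 34.6 CPM, ranges that include clusters of mostly 1 library. The intervals of the nearest pair overlapped, DMSO cluster 2 at 34.0 to 39.7 CPM and pyrvinium cluster 5 at 31.3 to 38.1 CPM. Among DMSO clusters, Mcl1 was highest in cluster 1, the cells rich in immediate-early genes (55.6 to 64.3 CPM), and in cluster 3 (49.4 to 63.0 CPM). Those 2 intervals overlapped, and after thinning cluster 3 had the largest share of cells with an Mcl1 count, 29.2%. Bcl2 was also lower within both, at 8.96 and 3.198 CPM in cluster 2 and 6.17 and 2.44 CPM in cluster 4, log2 ratios of -1.49 and -1.34. These ratios lie further from 0 than the ratio over all cells. In cluster 5, which had 32.3% of the pyrvinium counts, Bcl2 was at 12.5 CPM, and that cluster gave 69.4% of the library's Bcl2 counts. Bcl2l1 was at 47.7 and 43.8 CPM in cluster 2 and 81.2 and 71.9 CPM in cluster 4, so it varied more between these clusters than between the treatments; the ratio in cluster 4 was -0.18 (-0.34 to -0.01).

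Pmaip1 and Bbc3 looked different within clusters than over all cells. Pmaip1 was at 116 CPM (106 to 126) in DMSO cluster 3, against 20.04 to 35.7 CPM in the other DMSO clusters. Cluster 3 held 12.0% of the DMSO counts and 38.9% of the Pmaip1 counts. Leaving that cluster out, Pmaip1 was at 24.6 CPM in DMSO and 24.1 CPM in pyrvinium cells (log2 ratio -0.03, -0.17 to 0.10). Cluster 3 was chosen for leaving out because its Pmaip1 was the highest of the DMSO clusters, so the DMSO level had to fall. The value without it describes where the counts lay and is no check of the difference. Within cluster 2 Pmaip1 was higher with pyrvinium, 20.04 against 31.0 CPM (log2 ratio 0.63, 0.37 to 0.89), and within cluster 4 it was at 35.7 and 30.2 CPM (-0.24, -0.49 to 0.01). In cluster 5 it was at 11.2 CPM, the lowest of the 7 levels.

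Bbc3 in cluster 4 stood at 7.52 CPM in DMSO cells and 12.5 CPM in pyrvinium cells, a log2 ratio of 0.74 (0.24 to 1.27). In cluster 2 it was at 8.68 and 9.43 CPM (0.12, -0.34 to 0.56). Over all cells the ratio was 0.01; DMSO cluster 1 had 13.2 CPM and pyrvinium cluster 5 had 7.26 CPM. The Bbc3 value in DMSO cluster 4 rests on 39 counts. Bid was lower in cluster 2, 25.7 and 13.3 CPM (-0.95, -1.31 to -0.61), and at 18.3 and 13.3 CPM in cluster 4. Bad was at least 1.5-fold lower in both, at 140.0 and 86.7 CPM and at 123 and 80.8 CPM. Bax and Bak1 stayed under 1.5-fold within both, with log2 ratios between -0.57 and -0.34. Bcl2l11 had 19 to 60 counts per cluster and library and its interval held 0 within both shared clusters.

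**Figure D3:**
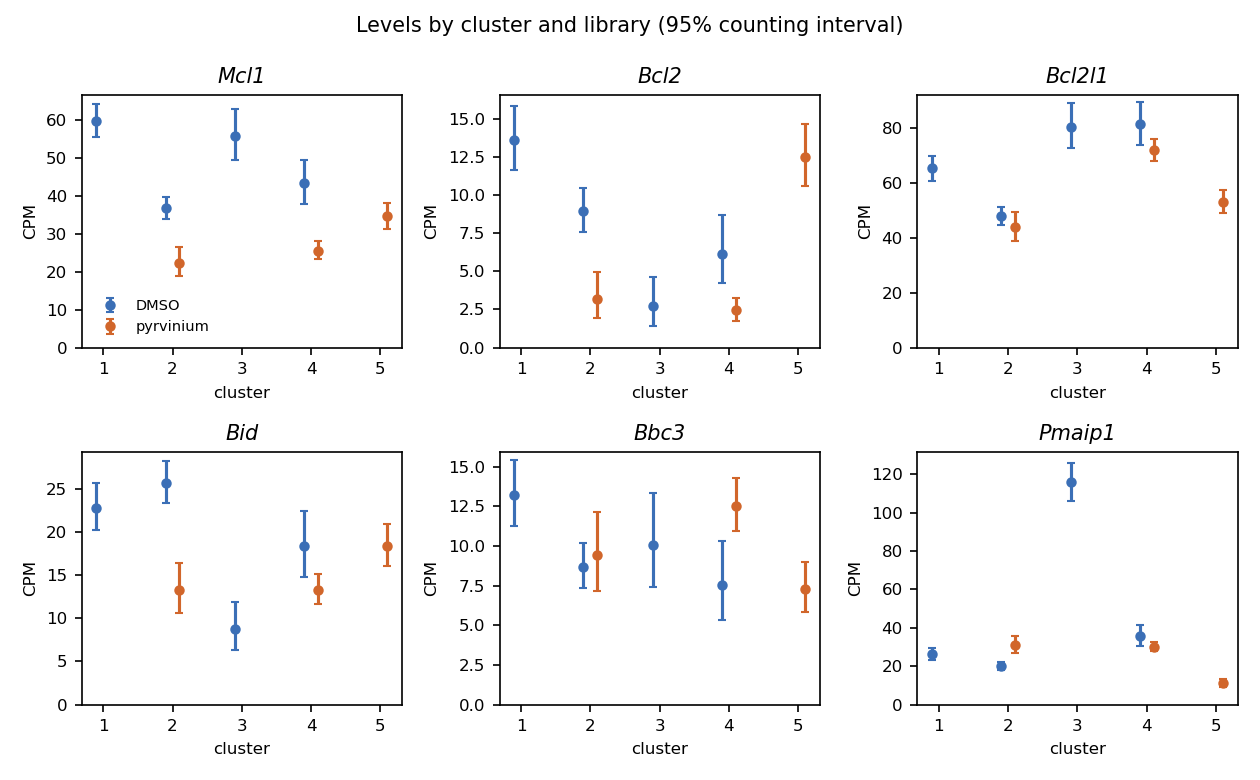
CPM by cluster (x axis) and library with 95% counting intervals for 6 of the genes; only cluster and library pairs with at least 30 cells are drawn. Mcl1 is lower with pyrvinium in clusters 2 and 4, Bcl2 is high in cluster 5, and Pmaip1 is at 116 CPM in DMSO cluster 3 and under 36 CPM elsewhere.

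Cells were also grouped within each library by their Ddit3 count after thinning to 5000. In the DMSO library 1401 cells had 0, 126 had 1 and 75 had 2 or more; with pyrvinium the numbers were 381, 178 and 295. Trib3, a pseudokinase gene induced by CHOP, served as a reference and was higher in cells with 2 or more Ddit3 counts than in cells with 0 in both libraries: 12.8, 61.9 and 176 CPM with DMSO, and 60.9, 120.2 and 146 CPM with pyrvinium. In the DMSO library Pmaip1 was higher in the class richest in Ddit3 by more than counting error, at 30.4 CPM (26.5 to 34.8), 58.7 CPM (41.4 to 81.0) and 149 CPM (113 to 194). With pyrvinium it was at 27.3 CPM (20.4 to 35.8), 23.6 CPM (14.6 to 36.1) and 31.2 CPM (22.8 to 41.6), and the intervals overlap. Cluster 3 supplied 61 of the 75 DMSO cells with 2 or more Ddit3 counts; without it Pmaip1 was at 22.7 and 32.9 CPM in the first 2 classes, and the last class had 7 counts in 14 cells (40.2 to 206 CPM). Whether the libraries differ in this relation was not tested.

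The other members described by Ddit3 class showed smaller or opposite differences. Bbc3 was at 10.1, 12.7 and 13.3 CPM with DMSO and 10.5, 12.4 and 14.2 CPM with pyrvinium, with overlapping intervals. Bcl2l11 was at 3.85, 7.94 and 10.7 CPM and at 3.67, 6.74 and 4.75 CPM, from at most 27 counts a class. Mcl1 was at 37.3 CPM (29.1 to 47.0), 29.2 CPM (19.1 to 42.8) and 22.4 CPM (15.4 to 31.4) with pyrvinium, and at 50.1, 55.6 and 64.0 CPM with DMSO, again with overlapping intervals. Bad was lower in the DMSO cells rich in Ddit3, 137 CPM (129 to 146) against 56.0 CPM (34.7 to 85.6), and lay between 104 and 113 CPM in all 3 pyrvinium classes. Bax showed 407 and 285 CPM for the same DMSO classes and 340 and 350 CPM with pyrvinium. Cluster 3 supplied 61 of those 75 DMSO cells rich in Ddit3. Without it Bad was at 143 CPM (134 to 152) and 71.4 CPM (23.2 to 167), still lower but from 5 counts, with overlapping intervals. Bax without cluster 3 had no single direction. It was at 423 CPM (407 to 439) with 0 Ddit3 counts and 318 CPM (266 to 376) with 1. With 2 or more it was at 486 CPM (336 to 679). Counts per class are small, and the order was read from intervals, not tested.

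**Figure D4:**
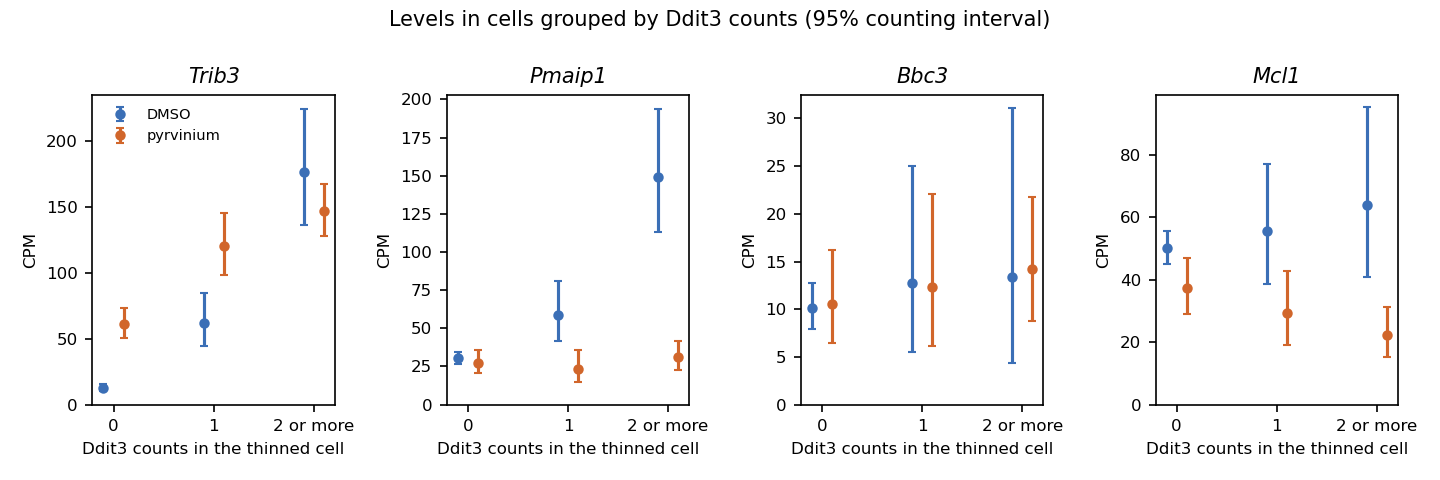
CPM of Trib3, Pmaip1, Bbc3 and Mcl1 in cells with 0, 1 and 2 or more Ddit3 counts after thinning, with 95% counting intervals. In the DMSO library Pmaip1 is at 30.4 CPM in cells without a Ddit3 count and 149 CPM in those with 2 or more, and in the pyrvinium library at 27.3 and 31.2 CPM.

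Of 15 other genes of the family, 9 had at least 20 counts. Of those, 3 passed the limit downward and 0 upward, with a median log2 ratio of -0.43. Over all 15586 tested genes 15.5% passed it downward and 7.57% upward. This list and those below are short, and their counts were not tested against these shares. Bok, a relative of Bax and Bak1 that sits mostly at the endoplasmic reticulum, had 119 CPM (115 to 122) in DMSO and 50.7 CPM (48.4 to 53.04) with pyrvinium, 2.34-fold lower; it was at 143 and 56.6 CPM within cluster 2. The mitophagy receptor genes Bnip3 and Bnip3l, both known HIF targets, were at 419 and 48.5 CPM and at 46.7 and 22.6 CPM. Bnip3 reached 1459 CPM in DMSO cluster 3, the cluster with the highest Pmaip1. Bcl2l12 was at 15.2 and 10.7 CPM. Bcl2l13 and the pro-survival gene Bcl2l2 were higher with pyrvinium by more than counting error but under the limit, at 16.7 and 21.4 CPM and at 5.48 and 6.75 CPM. Bmf and Bik, further BH3-only genes, were at 0.68 and 0.51 CPM and at 3.45 and 3.08 CPM, and Hrk had 4 and 11 counts.

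The apoptosome and caspase list, which includes Casp8 upstream of Bid, had 3 of 11 measured genes past the limit downward and 0 upward (median -0.30). The shares over all tested genes were 15.5% downward and 7.57% upward. Casp6, an executioner, was at 35.9 and 20.3 CPM and the initiator Casp8 at 31.9 and 20.1 CPM; the third was Dffb, the DNA-cutting nuclease of apoptosis, at 4.93 and 2.40 CPM. Parp1, a classic caspase substrate, was at 17.9 and 13.6 CPM. Cycs, which encodes the cytochrome c that Bax and Bak1 release, was at 1085 and 953 CPM. Of 9 measured inhibitors of apoptosis and their mitochondrial antagonists, 2 were lower: Birc5, which is also a mitotic gene, at 148 and 57.5 CPM, and Endog at 20.7 and 13.0 CPM. Diablo, which relieves caspase inhibition, was at 18.6 and 15.8 CPM, Birc6 at 27.3 and 19.5 CPM and Xiap at 15.6 and 18.0 CPM.

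Death receptor and adaptor genes passed the limit downward in 3 and upward in 1 of 11 measured (median -0.11), beside 15.5% and 7.57% of all tested genes. The adaptors Fadd (16.7 and 8.21 CPM) and Tradd (41.0 and 23.8 CPM) and the kinase gene Ripk1 (5.78 and 3.43 CPM) were lower, and the receptor gene Tnfrsf21 was at 12.2 and 22.3 CPM. Tnfrsf1a, a receptor for TNF, was at 27.9 and 39.0 CPM. Tnfrsf10b, the mouse TRAIL receptor and a known CHOP target, was at 10.4 and 14.2 CPM, 1.37-fold.

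Among 10 genes whose products regulate the family, 3 were higher and 4 lower, where 7.57% and 15.5% of all tested genes were. Ddit3 was at 39.1 and 311 CPM, Atf4 at 132 and 244 CPM and Hif1a at 22.3 and 71.5 CPM. Jun was at 288 and 79.4 CPM, Myc at 66.6 and 30.6 CPM, E2f1 at 9.48 and 5.40 CPM and Trp53 at 47.9 and 22.4 CPM. The 10 p53 targets outside the family had a median of 0.35 with 1 higher and 0 lower: Trp53inp1 was at 10.4 and 16.8 CPM, Perp at 213 and 309 CPM, Aen at 38.4 and 50.6 CPM and Cdkn1a at 839 and 1083 CPM, but the p53 target Mdm2 lay level at 29.4 and 28.9 CPM. Genes for turnover of the proteins had 0 of 10 past the limit in either direction; the Mcl1 ubiquitin ligase gene Huwe1 was at 20.1 and 20.9 CPM, the Mcl1 deubiquitinase gene Usp9x at 18.9 and 20.002 CPM, Mapk9 at 10.1 and 12.2 CPM and Cul5 at 8.65 and 10.01 CPM. Of 10 outer membrane partners, Marchf5, a ubiquitin ligase gene of that membrane, was at 18.0 and 31.5 CPM and was the 1 past the limit. Opa1 was at 12.5 and 17.7 CPM, Mff at 36.1 and 45.1 CPM, Bcap31 at 235 and 186 CPM, and Vdac2, whose channel holds Bak1, at 321 and 316 CPM.

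**Figure D5:**
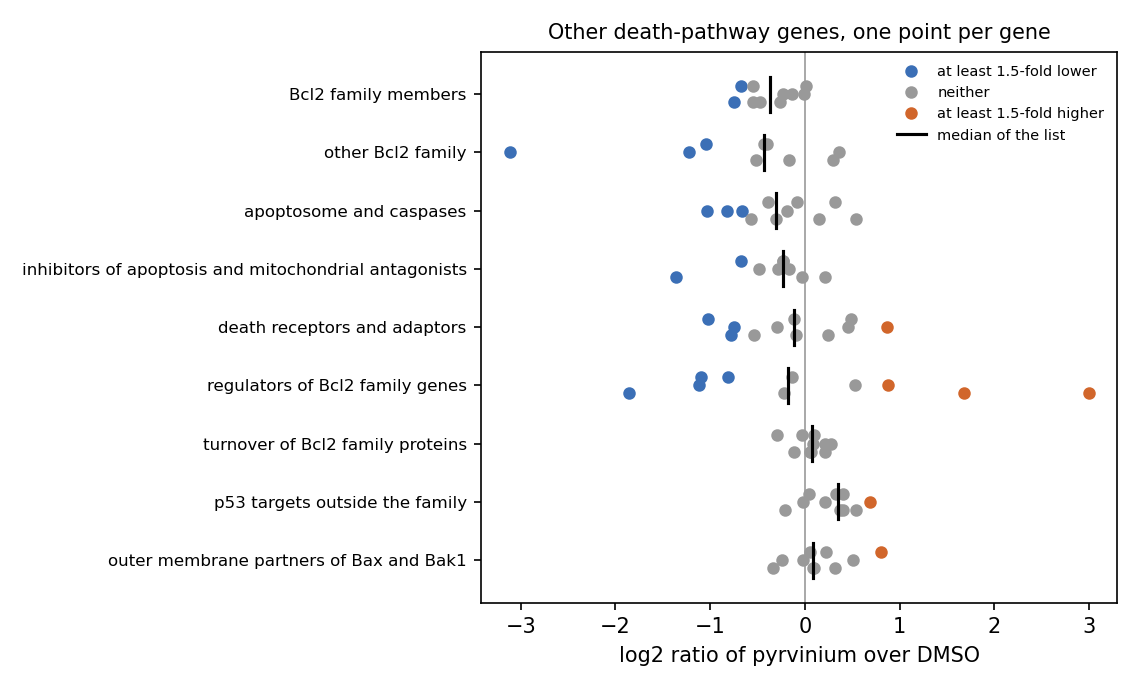
Log2 ratio of pyrvinium over DMSO for the 10 members and each measured gene of 8 death-pathway lists, coloured by whether the gene passed the 1.5-fold limit, with a bar at the list's median. Medians lie between -0.43 for other family genes and 0.35 for p53 targets; all genes had a median of -0.08.

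Few members were counted in any single cell. Thinned to 5000 counts, a DMSO cell had 4 counts of the 10 genes at the median (quartiles 2 and 5) and a pyrvinium cell 3 (quartiles 2 and 4). No pro-survival count was found in 57.5% of DMSO and 63.2% of pyrvinium cells, and no BH3-only count in 37.5% and 44.1%. Bax and Pmaip1 were spread more unevenly over DMSO cells than over pyrvinium cells. The variance of thinned counts, which is 1 times the mean for Poisson counts, was 1.35 times the mean with DMSO and 0.96 times with pyrvinium for Pmaip1, 1.39 and 1.09 times for Bax, and 1.10 and 1.05 times for Mcl1. Bcl2 (1.05 and 1.17 times), Bad (1.05 and 1.12), Bcl2l1 (1.15 and 1.20) and Bcl2l11 (0.98 and 1.08) went the other way. No interval was computed for these values. Pmaip1 had a count in 15.3% of DMSO cells (13.6 to 17.2) and 13.2% of pyrvinium cells (11.0 to 15.7); over DMSO clusters this ran from 9.20% in cluster 2 to 45.0% in cluster 3, and over pyrvinium clusters from 8.14% to 16.8%. Free RNA at 10% would give 2.38% and 1.52%, while unthinned cells gave 43.9% and 51.9%. Bbc3 had a count in 4.99% (3.98 to 6.18) and 6.09% (4.58 to 7.91) of thinned cells, where free RNA would give 0.83% and 0.73%, the smallest cluster shares were 1.16% and 4.26%, and the unthinned shares were 19.9% and 31.4%.

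Barcodes with 100 to 500 counts, taken as free RNA, carried the same genes. Mcl1 was at 62.3 CPM there with DMSO and 36.2 CPM with pyrvinium, Bbc3 at 16.6 and 14.6 CPM, and Bcl2 at 13.7 and 7.82 CPM, each above its level in cells. Pmaip1 was at 48.2 and 30.7 CPM. The differences between the libraries in this fraction point the same way as in cells for Mcl1, Bcl2 and Pmaip1; how much of a cell's count is free RNA was not tested. Several members overlap other genes in the GENCODE annotation: Bid overlaps Bcl2l13 (16.7 and 21.4 CPM), Bad overlaps Gpr137 (20.2 and 22.6 CPM) and Bak1 overlaps Ggnbp1 (4.03 and 6.42 CPM), each on the opposite strand. Whether counting used strand is not stated, so reads of these pairs may be shared.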

How the data were processed

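Libraries were made with the PIPseq method and its T2 kit, per the labels' protocols, 1 for DMSO and 1 for pyrvinium. The submitters' processing notes name Partek and the build GRCm39; aligner, counting tool, annotation and any barcode filter: not given in the sources used here. The deposited matrices hold whole-number counts per gene and barcode, not normalized, with 64212118 counts for DMSO and 64412821 for pyrvinium; whether a count is a molecule is not stated. A barcode was a cell if it had 1/10 of the 99th percentile of counts among its library's 2000 largest barcodes, with at least 500 genes and at most 20% mitochondrial counts. Counts were summed per library, with exact Poisson intervals for CPM and exact conditional binomial intervals for ratios; shares have exact Clopper-Pearson intervals. A gene past the limit had a ratio of at least 1.5-fold with the whole interval on that side of 1; a gene at 0 was set to 3 counts. Doublets were kept. Clusters came from 2000 variable genes, z-scored within each library, 30 components, 15 neighbours and Leiden resolution 0.5 (scanpy 1.11.5). The code was tested on simulated data. The members, lists and motifs were chosen with earlier results of these data known. Named from each list were up to 4 genes with at least 10 CPM and the largest ratio; other list genes were chosen after their values were seen. Alternatives were thresholds of 1000 and 3000 counts, cells of the same range of counts (13100 to 100494), leaving out likely doublets (the top 5% by Scrublet), 10% free RNA subtracted by either of 2 profiles, equal weights for clusters 2 and 4, the mean over cells and 2 other scalings. Settings within clusters, without cluster 3, in only the shared clusters and by Fos count were added after seeing the data. Cluster 3 was left out because it was the DMSO cluster with the highest Pmaip1 level. Some genes of the lists and part of the genotype are not reported here.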

Additional observations from a re-analysis of the deposited data

How the results depend on the processing

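Of the ratios of single members under other settings, 97 stayed within their counting interval and 43 moved beyond it, and the ratios of Mcl1 and Bcl2, past the limit in the report, kept their sign. Pmaip1 was past the limit downward in 4 settings (lowest -0.73) and upward within cluster 2 (0.63). The number of members at least 1.5-fold lower was 2 in the report. It was 4 after subtracting free RNA (profile of barcodes of 10 to 100 counts), with equal weights for the shared clusters, within cluster 2 and in only the shared clusters, 3 at thresholds of 1000 and 3000 counts, with the other free RNA profile, with the mean over cells, within cluster 4 and without cluster 3, 1 among genes with at least 10 CPM, and 0 at a limit of 2-fold. The number higher was 1 instead of 0 within cluster 2 (Pmaip1) and within cluster 4 (Bbc3). The share of all genes past the limit is not given under these settings, except 14.9% lower among genes with at least 10 CPM. Whether the members moved more than other genes was not tested. In other family genes 5 instead of 3 were lower with that free RNA subtracted and with equal weights. p53 targets past the limit upward, 1 in the report, were 0 at thresholds of 1000 and 3000 counts, with that free RNA subtracted, with the mean over cells and at 2-fold, 2 under both other scalings and 4 with equal weights. Caspase-list genes higher were 1 instead of 0 with the mean over cells and both other scalings, and 1 instead of 3 was lower at 2-fold. Outer membrane partners higher were 2 instead of 1 with that free RNA subtracted and when scaled by the median of ratios, and 0 at 2-fold. At 2-fold, 1 inhibitor gene was lower, and 1 death receptor gene was lower with 0 higher. With equal weights 1 turnover gene was higher. The log2 change of pro-survival over BH3-only counts, 0.14, was 0.0382 with equal weights, 0.0390 within cluster 4, 0.0298 within cluster 2 and 0.32 in only the shared clusters; that of pro-survival over effector counts, -0.06, was 0.0178 within cluster 2, 0.35 in only the shared clusters and 0.0452 without cluster 3. Without thinning, the share of cells with a count was higher with pyrvinium by 0.42 points for Mcl1, 11.9 for Bak1, 2.01 for Bad, 7.99 for Pmaip1 and 0.70 for Bcl2, where thinned cells gave lower shares; thinned to 2000 counts, Bak1 was 0.62 points higher. Scaling by the median of ratios moved the median of all genes by 0.086. Apart from fewer cells, fewer genes or a stricter limit, the cause was not tested. No paired analysis was possible because each treatment has 1 library. Depth limits Bcl2l11, Bcl2 and Bbc3 most.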

Other observations

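Immediate-early genes were far lower in the pyrvinium library, and Mcl1, known as a quick target of growth signals, was therefore also grouped by Fos count. Among thinned DMSO cells, the 447 without a Fos count had 46.1 CPM of Mcl1 (37.6 to 55.9), the 551 with 1 or 2 had 45.7 CPM (38.1 to 54.5) and the 604 with 3 or more had 59.9 CPM (51.5 to 69.3). Of the pyrvinium cells 723 had no Fos count, with 31.3 CPM of Mcl1 (25.8 to 37.6), and 127 had 1 or 2, with 26.8 CPM (15.6 to 42.9). Among cells without a Fos count the 2 intervals touch without overlapping, and without cluster 3 they overlap, at 43.2 CPM (34.6 to 53.3) and 31.0 CPM (25.5 to 37.3). Pmaip1 in the same DMSO classes was at 29.98, 33.8 and 48.3 CPM, and in the pyrvinium classes at 28.5 and 25.2 CPM. Without cluster 3 the DMSO values were 15.9 (10.9 to 22.4), 18.9 and 35.3 CPM, and pyrvinium cells without a Fos count had 27.9 CPM (22.7 to 33.9), above the DMSO cells of that class. Cluster 3 was left out for its high Pmaip1, so lower DMSO values followed from that choice.

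Over the 7 sums of a cluster and library with at least 30 cells, the genes with the pattern most like Bcl2l1 were Arrdc4, Cysrt1 and Ahnak (Pearson's r of 0.95, 0.95 and 0.94 on log2(CPM + 1)), those most like Bax were Gps1, Aurkaip1 and Wdr12 (1.00, 0.99 and 0.99), and those most like Bad were Eif3b, Ninj1 and Pigs (1.00, 0.98 and 0.98). They were picked from 4567 genes over only 7 points that share 2 libraries, and are given as a description.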
